A study of Rattus norvegicus with 64 samples.

Results

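A set of 10 genes used as markers of alveolar type 1 cells was followed through the lungs of 64 rats that had breathed fracking sand dust or filtered air. The members are the rows Aqp5, Ager, Pdpn, Hopx, Rtkn2, Akap5, Cldn18, Cav1, Emp2 and Clic5 of both count tables, 10 of the 30045 symbols listed. They were chosen by name, with earlier results of these data known, and all 10 passed the filter on low counts in every fit. The rats were male Sprague-Dawley animals, an outbred stock, whose age is not given in the sources used here. Each dust concentration was a study with its own air rats: dust rats of the 30 mg/m3 study, air rats of that study, dust rats of the 10 mg/m3 study and air rats of that study. All rats sat in an inhalation chamber, 6 hours on each of 4 days, and one piece of lung was taken 1, 7 or 27 days later. Every group at 30 mg/m3 held 6 rats, and groups at 10 mg/m3 held 5 at days 1 and 7 and 4 at day 27. Each library carries its own rat number, so p-values measure the spread between rats. RNA came from pieces of whole lung, in which fewer type 1 cells and less RNA per type 1 cell cannot be told apart. Nor can a change in other lung cells that carry a member, as endothelium does Cav1.

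Alveolar type 1 cells are the very thin, wide squamous cells that line most of the inner surface of the lung and form the air side of the gas exchange barrier. They carry few organelles, rest on a basement membrane shared with capillary endothelium, and are replaced after injury by type 2 cells that flatten and switch on the type 1 programme under NKX2-1 and the Hippo co-activators YAP and TAZ. Inhaled silica is known to injure this lining. Among the members, Aqp5 encodes the water channel of the apical membrane and Cldn18 a claudin of the tight junctions, so both act in barrier and fluid transport. Ager encodes RAGE, a receptor for advanced glycation end products, S100 proteins and HMGB1 that type 1 cells carry at their basal side, and Akap5 an anchoring protein for protein kinase A. Clic5 encodes a chloride intracellular channel protein linked to the actin cortex. Cav1 encodes the coat protein of caveolae, the membrane pits abundant in these cells and in endothelium, Emp2 a tetraspan membrane protein, Pdpn the mucin-type glycoprotein podoplanin, and Hopx an atypical homeodomain protein without DNA binding of its own.

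The promoters of Aqp5, Cldn18 and Rtkn2 are shown because these members were the ones past the threshold between the doses at day 1. Each run gives the 250 bases before the annotated start, on the gene's strand, outside the transcript, from the RefSeq promoter table of assembly GRCr8. That assembly is not the one of the counts, Rnor_6.0, and genes were matched by symbol, with 10 of 10 members found. Capitals mark the GC box letters GGGCGG on either strand.
Aqp5, GRCr8 chr7:132601278-132601527, + strand: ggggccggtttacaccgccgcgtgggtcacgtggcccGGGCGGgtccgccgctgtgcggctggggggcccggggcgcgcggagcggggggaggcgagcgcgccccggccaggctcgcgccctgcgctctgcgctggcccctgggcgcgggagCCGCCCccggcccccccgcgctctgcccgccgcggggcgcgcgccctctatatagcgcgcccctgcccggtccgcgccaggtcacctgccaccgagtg
Cldn18, GRCr8 chr8:109144620-109144869, - strand: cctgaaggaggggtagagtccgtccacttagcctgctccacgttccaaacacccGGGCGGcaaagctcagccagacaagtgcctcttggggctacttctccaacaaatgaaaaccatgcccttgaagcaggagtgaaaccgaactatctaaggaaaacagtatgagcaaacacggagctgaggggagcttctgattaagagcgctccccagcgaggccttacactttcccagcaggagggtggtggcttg
Rtkn2, GRCr8 chr20:20608863-20609112, - strand: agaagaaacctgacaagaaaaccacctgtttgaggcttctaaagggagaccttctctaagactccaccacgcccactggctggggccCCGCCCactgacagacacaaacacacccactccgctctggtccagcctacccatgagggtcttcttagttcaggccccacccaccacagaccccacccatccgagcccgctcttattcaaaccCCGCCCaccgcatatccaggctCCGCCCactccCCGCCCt
The GC box was present in 7 of 10 member promoters, against 30.5% of 33469 promoters of the same length. The 3 promoters without it were those of Ager, Hopx and Cav1. The letters of a TEAD site, GGAATG, were in 0 of 10 members and in 12.1% of all promoters, and those of a GATA site, AGATAA, in 0 of 10 members and in 10.3% of all promoters. CTCAAG, the core letters of an NKX2-1 site, were in 1 of 10, Akap5, against 13.3%. All 4 motifs were searched on both strands, and no motif contains another. Member promoters held a median of 59.2% G and C, between 51.6% in Pdpn and 83.2% in Aqp5, beside a median of 51.2% over all promoters. These are matches of letters in a short window and say nothing of binding.

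The libraries held 3420235 to 12359518 assigned reads. The smallest was dust rat 27 of day 1 at 10 mg/m3. Air rats 51 and 53 of day 1 at 30 mg/m3 stood apart with counts on 21889 and 22077 symbols, where the other 62 libraries had 17873 to 19731. The share of reads on the mitochondrial ribosomal RNA genes Rnr1 and Rnr2, left after ribosomal depletion, ran from 0.0961% to 4.43%, and air rat 21 of day 1 at 10 mg/m3 had 3.01% where the other 4 air rats of its group had 0.0961% to 0.314%. The cardiac muscle list summed to between 21.3 and 1189 CPM, the counts scaled to library size. The members themselves summed to 6700 to 9443 CPM in every library, with no member at 0, and the type 2 list, of the other alveolar epithelial cell, to 18480 to 32180 CPM. Levels are CPM scaled by TMM factors. They allow a gene to be compared between rats but not with another gene, since no gene lengths were used.

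Across the 64 rats the members differed widely in how steady they were. Cldn18 was the most variable, from 247 to 802 CPM, with a within-group SD of 0.36 on the log2 scale, followed by Clic5 with 0.27, Aqp5 with 0.23 and Hopx with 0.22. Cav1 and Emp2 were the steadiest, each with an SD of 0.11, and Akap5, Ager, Rtkn2 and Pdpn lay between 0.12 and 0.17. The lowest of the 12 group means of Aqp5, Rtkn2, Cldn18 and Clic5 all fell in the same group, dust at 30 mg/m3 on day 1. The highest group means of Aqp5, Rtkn2, Cldn18 and Cav1 all fell in air at 10 mg/m3 on day 27. For Cldn18 these group means were 336 and 689 CPM, a ratio of 2.05, and for Emp2, the flattest member, the highest mean was 1.14 times the lowest. In the order of the 12 group means, neighbours differed by no more than the larger SD of the pair in 108 of 110 steps over the 10 members. Steps between sorted means are small by their nature, so this count does not measure how far groups lie apart.

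**Figure D1:**
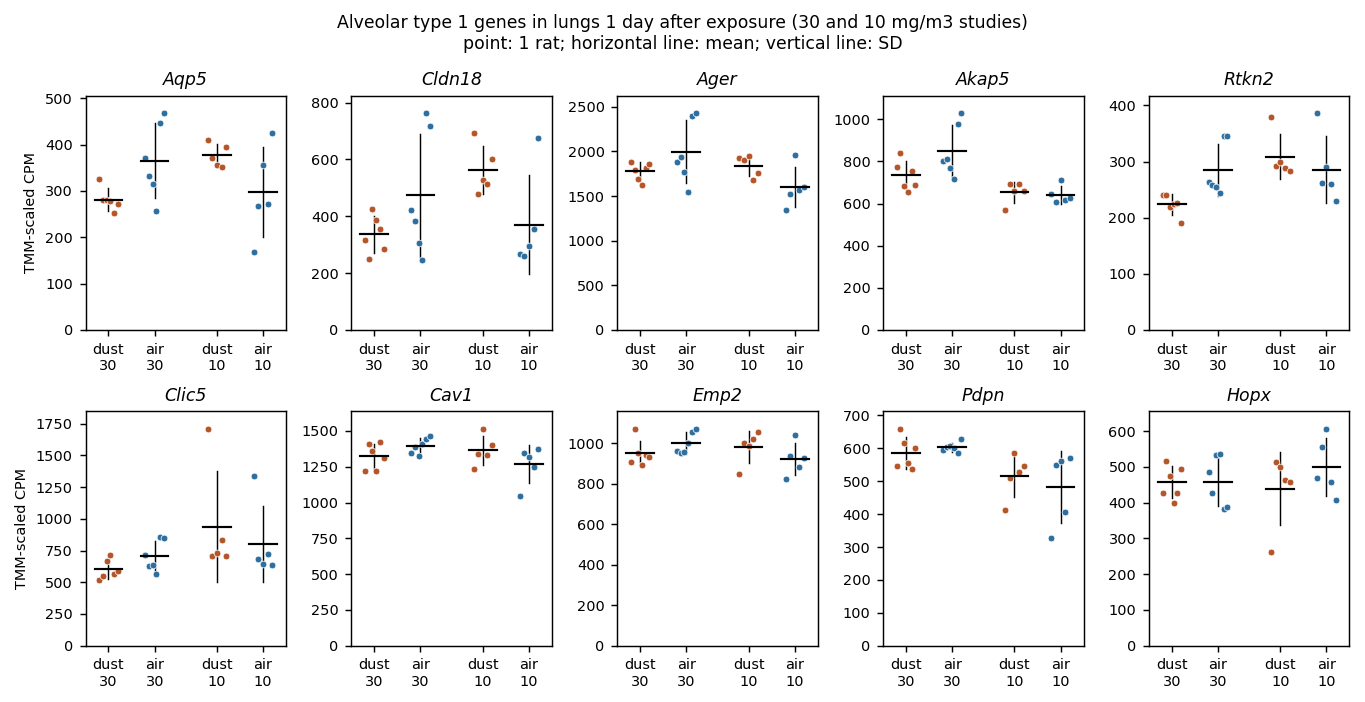
Levels of the 10 members in TMM-scaled CPM (y axes, from 0) 1 day after exposure, for dust and air rats of the 30 and 10 mg/m3 studies; each point is 1 rat, with mean and SD. Rtkn2 at 30 mg/m3 is the only member whose dust rats, at 190.1 to 241 CPM, all lie below the air rats of their study, at 244 to 345 CPM, as in 0.135% of all genes, and rats 27 and 17 stand out in Clic5.

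At 1 day after 30 mg/m3 dust, all 10 members were lower in dust than in air lungs by fitted fold, and none passed the threshold, an adjusted p under 0.05 over all genes. The differences were largest for the barrier genes Cldn18 and Aqp5 and for Rtkn2, and near 0 for Hopx. Aqp5 had 253, 279 and 326 CPM (lowest, median and highest of 6) in dust rats, against 256, 351 and 468 CPM in air rats. The dust rats kept to a narrow band and the air rats spread over and above it. The log2 fold change was -0.38 ± 0.12 (SE; adjusted p = 0.191). Rtkn2 had 190.1, 225 and 241 CPM in dust rats, against 244, 261 and 345 CPM in air rats. Every dust rat was below every air rat, and the fold change was -0.36 ± 0.09 (adjusted p = 0.161). It was the only one of 10 members whose groups did not overlap, where 21 of 15551 genes (0.135%) had every dust rat below every air rat and 0.36% had no overlap in either direction. Cldn18 had 249, 337 and 424 CPM in dust rats, against 247, 403 and 763 CPM in air rats. The high end of the air group was set by rats 54 and 55, with 763 and 718 CPM, while the other 4 air rats lay between 247 and 423 CPM, inside or near the dust range. Its fold change was -0.50 ± 0.22 (adjusted p = 0.3).

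The other members had smaller fitted differences. Akap5 had 655, 723 and 841 CPM in dust rats and 718, 807 and 1030.4 CPM in air rats, with a log2 fold change of -0.22 ± 0.07 (adjusted p = 0.195). Ager had 1622, 1801 and 1884 CPM in dust rats and 1543, 1912 and 2431 CPM in air rats, a difference of -0.17 ± 0.09. Air rats 54 and 55 were again the highest in both genes. Clic5 averaged 601 ± 75.8 CPM in dust rats and 708 ± 120.5 CPM in air rats (SD, n = 6 each), a difference of -0.24 ± 0.11. The differences were -0.08 for Cav1, -0.08 for Emp2 and -0.05 for Pdpn, the membrane genes, and -0.01 for the homeodomain gene Hopx, with adjusted p from 0.456 to 0.955. Of all 15551 genes edgeR called 0 (0%), with 2334 genes and 5 members at an unadjusted p under 0.05. DESeq2 called 40 genes and limma voom 0, and 1 member, Rtkn2, was among the DESeq2 calls. The members' median was -0.20, where that of all genes was 0.02 and 55.1% of genes were above 0.

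The result at 30 mg/m3 turned on a few air libraries. Without air rats 51 and 53, edgeR called 3 members lower in dust: Aqp5 at -0.52 (adjusted p = 0.0149), Rtkn2 at -0.44 (0.00863) and Akap5 at -0.29 (0.0224). Leaving out rat 53 alone gave the same 3 members. Rat 53 was the lowest air rat in each of them, with 256 CPM in Aqp5, 244 in Rtkn2 and 718 in Akap5. Its removal therefore raises the air level of these genes. It was also the lowest air rat in Cldn18, Ager and Clic5, which were not called. The count of all genes called moved over the alternatives too, as given at the end. Leaving out rat 54 alone brought Cldn18 to -0.32 and Rtkn2 to -0.31. The mitochondrial ribosomal RNA share was 0.105 to 0.478% in dust rats and 0.128 to 0.902% in air rats, and its part in the result was not tested beyond the fit with that share as a covariate, which gave -0.29 for Cldn18 and -0.31 for Rtkn2, neither past the threshold.

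The fitted differences of day 1 had the other sign at 10 mg/m3. Of 10 members, 9 were higher in dust than in air lungs, and again none passed the threshold. The largest difference was that of Cldn18. Its levels were 693, 477, 529, 513 and 600.4 CPM in the 5 dust rats, against 268, 259, 295, 355 and 674 CPM in the 5 air rats. The last air value, that of rat 21, was inside the dust range, and the other 4 air rats were below every dust rat. The log2 fold change was 0.61 ± 0.18 (adjusted p = 0.0987). Aqp5 had 410.2, 371, 357, 352 and 396 CPM in dust rats, against 168, 268, 355, 271 and 424 CPM in air rats. The dust rats were tightly grouped, and air rat 17 was the lowest of all 64 rats. The fold change was 0.35 ± 0.14 (adjusted p = 0.18). Ager had 1926, 1907, 1948, 1676 and 1755 CPM in dust rats, against 1341, 1522, 1957, 1571 and 1606 CPM in air rats. All 5 dust rats were above the air median, and the fold change was 0.21 ± 0.10 (adjusted p = 0.225).

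Rtkn2 had 379, 292, 299, 288 and 283 CPM in dust rats, against 387, 262, 290.4, 259.8 and 229 CPM in air rats, a log2 difference of 0.12 ± 0.11. In each group 1 rat was high, dust rat 27 and air rat 17. The same rats led Clic5, which had 1711, 707, 733, 837 and 709 CPM in dust rats and 1338, 682, 647, 726 and 634 CPM in air rats. Its difference of 0.23 ± 0.21 was -0.10 without dust rat 27 and 0.49 without air rat 17, so its sign rested on a single library. Hopx, the only member below 0, had 261, 514, 498, 463 and 457 CPM in dust rats and 469.7, 556, 606, 457 and 407 CPM in air rats. Dust rat 27 was its lowest value, and the difference was -0.17 ± 0.15. Differences were 0.04 for Akap5, 0.11 for Pdpn, 0.12 for Cav1 and 0.10 for Emp2, and all 10 members' groups overlapped, where 3.53% of 15668 genes had groups that did not. Of 15668 genes edgeR called 20 (0.128%), with 2957 genes and 3 members at an unadjusted p under 0.05. DESeq2 called 474 genes with 1 member, Cldn18, and limma voom 8 genes with no member. The members' median was 0.12, against -0.01 over all genes, of which 48.4% were above 0.

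Without air rats 17 and 21, a choice made after seeing the data, Cldn18 passed at 0.90 (adjusted p = 0.000999). Without rat 21 alone Cldn18 passed at 0.94 (0.000164) and Aqp5 at 0.52 (0.0176). Without rat 17 alone the values were 0.52 (0.311) for Cldn18 and 0.20 (0.433) for Aqp5. The mitochondrial ribosomal RNA share moved with this comparison. It was 0.493 to 2.62% in dust rats and 0.0961 to 3.01% in air rats, and apart from rats 27 and 21 it was 0.493 to 0.819% in dust rats and 0.0961 to 0.314% in air rats, with no overlap. With the share as a covariate the difference of Cldn18 was 0.32 (adjusted p = 0.376) and that of Aqp5 was 0.17 (0.684). Such a fit separates the share poorly from dust.

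**Figure D2:**
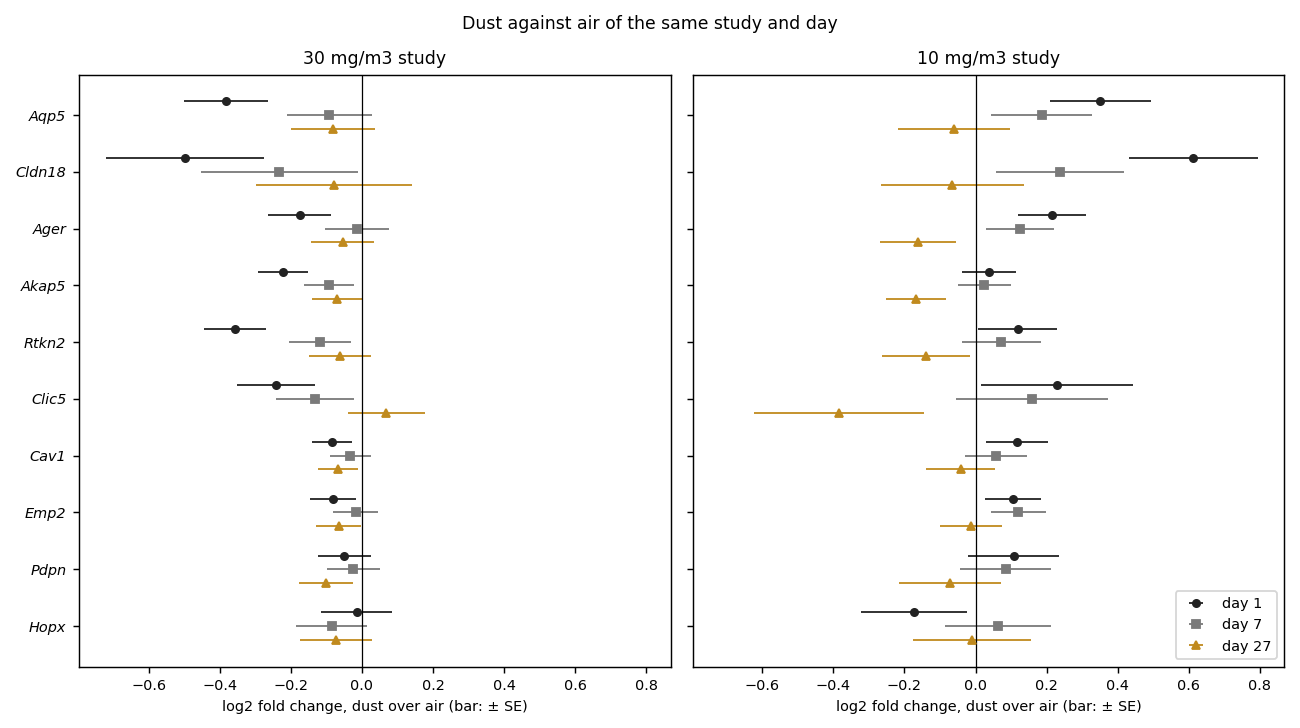
Log2 fold change of dust over air with its SE (x axis) for each member (y axis) at days 1, 7 and 27, in the 30 mg/m3 study (left) and the 10 mg/m3 study (right). At day 1 Cldn18 lies at -0.50 at 30 mg/m3 and at 0.61 at 10 mg/m3, and at day 27 it lies at -0.08 at 30 mg/m3 and -0.07 at 10 mg/m3.

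The question whether the early response differed between the doses was asked as the dust-minus-air difference at 30 mg/m3 minus that at 10 mg/m3, in 1 fit of all 12 groups. At day 1 this difference was below 0 for 9 of 10 members, and 3 passed: the claudin Cldn18, the water channel Aqp5 and Rtkn2. Cldn18 was -0.50 at 30 mg/m3 and 0.61 at 10 mg/m3, a difference of -1.10 ± 0.30 (95% interval -1.69 to -0.51; adjusted p = 0.0185). Aqp5 was -0.38 at 30 mg/m3 and 0.35 at 10 mg/m3, a difference of -0.72 ± 0.19 (interval -1.08 to -0.35; adjusted p = 0.0138). For Rtkn2 the difference was -0.46 ± 0.14 (interval -0.74 to -0.18; adjusted p = 0.0295). Ager, at -0.37 ± 0.13, just missed the threshold (adjusted p = 0.0537). Clic5 lay at -0.46 ± 0.23 and Akap5 at -0.24 ± 0.10, with adjusted p of 0.183 and 0.104. Cav1, Emp2 and Pdpn lay between -0.18 and -0.14, and Hopx alone was above 0, at 0.18 ± 0.18.

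These 3 of 10 stand against a large background, since edgeR called 1678 of 16190 genes (10.4%) in this comparison, 954 above and 724 below 0. All 3 members called were below 0. DESeq2 called 1996 genes with 4 members, Ager being the addition, and limma voom 1384 genes with 3 members. The members' median was -0.31, where that of all genes was 0.05 and 55.7% were above 0. The calls ended once the share of mitochondrial ribosomal RNA entered the fit, under which the differences were -0.58 for Cldn18 (adjusted p = 0.243), -0.48 for Aqp5 (0.181) and -0.44 for Rtkn2 (0.163). The value of Rtkn2 moved little, from -0.46. Apart from rats 27 and 21, that share did not overlap between dust and air rats at 10 mg/m3. The fit therefore separates the share poorly from dust. Single air libraries also decided the calls. Without rat 17 of the 10 mg/m3 study Cldn18 was at -0.99 (0.0597) and Aqp5 at -0.56 (0.0528), leaving Rtkn2. Without rat 54 or rat 55 of the 30 mg/m3 study Aqp5 was left, and Rtkn2 was also lost without dust rat 62 at 30 mg/m3 or dust rat 27 at 10 mg/m3. Without all of air rats 17, 21, 51 and 53, chosen after seeing the data, 6 members passed, with Cldn18 at -1.66 and Aqp5 at -0.90. The number of all genes called also moved over the alternatives, as given at the end.

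The counts of called genes in lists tied to the members by role are set here beside the 10.4% of all genes called in the dose difference at day 1. Of 20 other type 1 genes tested, 3 were lower and 1 higher, including the proteoglycan gene Spock2 at -0.94 ± 0.28 (adjusted p = 0.029) and the annexin Anxa3 at 0.48 ± 0.15 (0.0293). Of 12 regulators of type 1 fate, 0 were above 0 and 3 passed, among them the forkhead factors Foxa1 at -1.14 ± 0.30 (0.0132) and Foxa2 at -0.50 ± 0.13 (0.0126). Of 7 caveola genes, 3 were lower, led by Ptrf, which encodes cavin-1, at -0.77 ± 0.22 (0.0208) and Ehd2, an ATPase of the caveolar neck, at -0.55 ± 0.16 (0.026). Of 9 junction genes 1 was lower, near the share of all genes: the E-cadherin gene Cdh1 at -0.63 ± 0.15 (0.0107). Among 12 partners of RAGE and podoplanin, App, whose amyloid product binds RAGE, was lower at -0.53 ± 0.15 (0.0214), and so was Msn, the moesin gene, at -0.31 ± 0.09 (0.0292). None of 13 genes of the transitional state between type 2 and type 1 cells passed, and Cldn4 came nearest at -0.90 ± 0.31 (0.0509).

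In dust against air at day 1 none of these neighbouring lists held a gene past the threshold, at either dose. At 30 mg/m3 all 12 regulators were below 0, with a median of -0.20, and Wwtr1, which encodes the co-activator TAZ, came nearest at -0.21 ± 0.07 (adjusted p = 0.194). At 10 mg/m3 11 of them were above 0, with a median of 0.13, and Foxa2 came nearest at 0.36 ± 0.10 (0.09). Of the other type 1 genes 3 of 20 were above 0 at 30 mg/m3, where Myrf, a membrane-bound transcription factor, lay at -0.58 ± 0.21 (0.241), and 14 of 20 at 10 mg/m3, where Anxa3 lay at -0.40 ± 0.10 (0.0693). The junction gene nearest the threshold was Cdh1 at 30 mg/m3, at -0.32 ± 0.10 (0.195), and Cldn3, another claudin, at 10 mg/m3, at 0.48 ± 0.10 (0.0566). Among caveola genes it was Ehd2 at 30 mg/m3, at -0.26 ± 0.12 (0.309), and Ptrf at 10 mg/m3, at 0.49 ± 0.15 (0.105). The transitional gene nearest the threshold was Lgals3, the galectin-3 gene, at 30 mg/m3, at 0.30 ± 0.13 (0.294), and Cldn4 at 10 mg/m3, at 0.80 ± 0.26 (0.113).

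Lists of other lung cells also held called genes in the dose difference at day 1, to be read against the same 10.4% of all genes. Of 14 type 2 genes 4 were lower, among them Napsa, a protease of surfactant processing, at -0.59 ± 0.14 (adjusted p = 0.0065), and the list median was -0.32. The type 2 list summed to 22940 to 29710 CPM in dust and 23750 to 30010 CPM in air rats at 30 mg/m3, and to 21600 to 27680 CPM in dust and 18480 to 27180 CPM in air rats at 10 mg/m3. Of 14 endothelial genes 2 were lower, with Aplnr at -0.62 ± 0.20 and Cdh5, VE-cadherin, at -0.66 ± 0.22. That list summed to 4364 to 4845 CPM in dust and 4457 to 5522 CPM in air rats at 30 mg/m3, and to 4722 to 6181 CPM in dust and 4747 to 5206 CPM in air rats at 10 mg/m3. No marker of either list was at 0. Of 7 secretory airway genes 0 were above 0 and 1 was lower, the club cell secretoglobin Scgb1a1 at -0.85 ± 0.25 (0.0273), and this list had the lowest median of the 17 lists, -0.76. It summed to 1536 to 2608 CPM in dust and 1704 to 2880 CPM in air rats at 30 mg/m3, and to 2382 to 4020 CPM in dust and 1317 to 3158 CPM in air rats at 10 mg/m3. Of 5 macrophage genes 1 was lower, the lysosomal Cd68 at -0.61 ± 0.18 (0.023). No fibroblast gene passed, at a list median of -0.47, and no cardiac muscle gene, at a median of 0.54. Their part in the members' result was not tested.

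**Figure D3:**
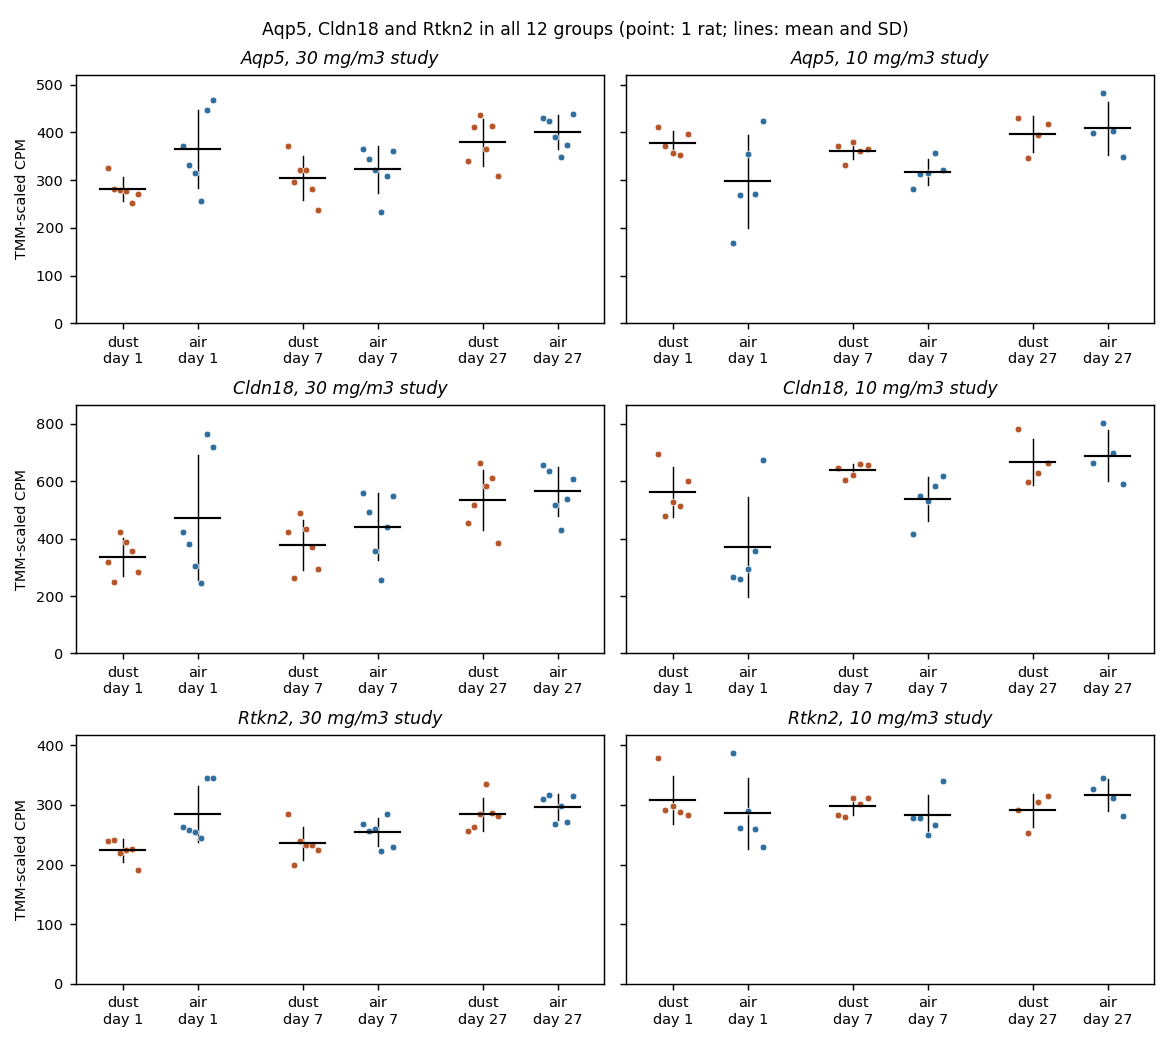
TMM-scaled CPM (y axes, from 0) of Aqp5, Cldn18 and Rtkn2 in dust and air rats at days 1, 7 and 27 of the 30 mg/m3 study (left) and the 10 mg/m3 study (right); each point is 1 rat, with mean and SD. At day 1 the mean of Cldn18 is 336 CPM in dust and 473 CPM in air rats at 30 mg/m3, and 563 CPM in dust and 370.0 CPM in air rats at 10 mg/m3.

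At day 7 no member passed in either study, and the fitted differences of Cldn18 and Aqp5 were nearer 0 than at day 1. At 30 mg/m3 Cldn18 had 262, 398 and 490.3 CPM in dust rats, against 256, 468 and 558 CPM in air rats. The groups overlapped over most of their range, at a log2 fold change of -0.23 ± 0.22. At 10 mg/m3 Cldn18 had 647, 605, 620.2, 660.0 and 655 CPM in dust rats, against 416, 548, 531, 585 and 617 CPM in air rats. Of the dust rats 4 were above every air rat and 1 was inside the air range, at a fold change of 0.24 ± 0.18. Aqp5 averaged 304 ± 45.1 CPM in dust and 322 ± 49.3 CPM in air rats at 30 mg/m3 (SD, n = 6 each), and 362 ± 17.9 CPM in dust and 317 ± 27.5 CPM in air rats at 10 mg/m3 (SD, n = 5 each). Its fold changes were -0.09 ± 0.12 at 30 mg/m3 and 0.19 ± 0.14 at 10 mg/m3. All 10 members were below 0 at 30 mg/m3, between -0.23 and -0.01, and all 10 were above 0 at 10 mg/m3, between 0.03 and 0.24. The members share their libraries, so these signs are not 10 separate observations. Of all genes, 49.5% were above 0 at 30 mg/m3 and 48% at 10 mg/m3. The count at 30 mg/m3 differed between tools, with 55 genes called by DESeq2 and 7 by limma voom, and 0 members in either. EdgeR called 10 genes there (0.0643%), and 776 genes but 0 members had an unadjusted p under 0.05. It called 0 genes at 10 mg/m3 (0%), with 620 genes and 0 members at an unadjusted p under 0.05, and DESeq2 and limma voom each called 0 there. In the dose difference of day 7 all 10 members were below 0, from -0.46 for Cldn18 to -0.09 for Cav1, where 51.6% of all genes were above 0. There edgeR called 0 of 16190 genes (0%), DESeq2 14 and limma voom 0, and 1298 genes and 0 members had an unadjusted p under 0.05.

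At day 27 no member passed in either study. At 30 mg/m3 Cldn18 averaged 535 ± 104 CPM in dust and 564 ± 84.5 CPM in air rats (SD, n = 6 each), a fold change of -0.08 ± 0.22. The members there lay between -0.10 for Pdpn and 0.07 for Clic5. At 10 mg/m3 Cldn18 had 780.4, 597, 629 and 663 CPM in the 4 dust rats, against 664, 802, 699 and 591 CPM in the 4 air rats. The groups overlapped throughout, and the fold change was -0.07 ± 0.20. Clic5 had 626, 639, 769 and 694 CPM in dust rats, against 1072, 868, 817 and 757 CPM in air rats. It had the largest fitted difference of the members in that study at day 27, -0.39 ± 0.24 (interval -0.85 to 0.08), and 1 dust rat was above the lowest air rat. Akap5 lay at -0.17 ± 0.08, and all 10 members were below 0, where 46.9% of all genes were above 0. EdgeR called 0 genes at 30 mg/m3 (0%) and 0 at 10 mg/m3 (0%), and DESeq2 and limma voom also called 0 in both. An unadjusted p under 0.05 was found for 1141 genes at 30 mg/m3 and 369 at 10 mg/m3, with 0 members in either. In the dose difference of day 27 each of the 3 tools called 0 genes (edgeR, 0%), with 283 genes and 0 members at an unadjusted p under 0.05. Its interval for Cldn18 ran from -0.66 to 0.60 and that for Aqp5 from -0.43 to 0.35. Both leave out the value fitted at day 1 but overlap the day 1 interval, and the change of the dose difference between days was not tested.

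Averaged over the 3 days, no member passed at either dose. At 30 mg/m3 all 10 were below 0, with Rtkn2 at -0.18 ± 0.05 (adjusted p = 0.0644), Akap5 at -0.13 ± 0.04 (0.103), Aqp5 at -0.18 ± 0.07 (0.154) and Cldn18 at -0.27 ± 0.13 (0.264). Of all genes, 52.3% were above 0 at that dose, and all 12 regulators were below 0 too. EdgeR called 187 of 15551 genes there (1.2%), with 2764 genes and 4 members at an unadjusted p under 0.05. DESeq2 called 420 genes with 1 member, Rtkn2, and limma voom 189 genes with 0 members. Without air rats 51 and 53 edgeR called Rtkn2, Akap5 and Aqp5. In the 10 mg/m3 study 8 of 10 were above 0, beside 47.2% of all genes, with Cldn18 at 0.26 ± 0.11 (adjusted p = 0.489) and Aqp5 at 0.16 ± 0.09 (0.559). EdgeR called 5 genes there (0.0319%), with 1453 genes and 1 member at an unadjusted p under 0.05. DESeq2 called 25 genes and limma voom 8, with 0 members in either. The dose difference of the means was -0.53 ± 0.18 for Cldn18 (adjusted p = 0.0786) and -0.34 ± 0.11 for Aqp5 (0.07), and the other 8 members lay between -0.20 and -0.01. There edgeR called 338 genes (2.09%) with 0 members. DESeq2 called 823 genes with 2 members, Aqp5 and Cldn18, and limma voom 197 genes with 0 members. Whether the dust effect depended on the day was tested on 2 degrees of freedom. At 30 mg/m3 every member had an adjusted p of at least 0.981, with 0 genes called by edgeR (0%), 46 by DESeq2 and 0 by limma voom. At 10 mg/m3 the smallest adjusted p of a member was 0.669, for Ager, with 0 genes called by edgeR (0%), 0 by DESeq2 and 0 by limma voom. An unadjusted p under 0.05 was found for 688 genes and 0 members at 30 mg/m3, and for 1141 genes and 1 member, Ager, at 10 mg/m3.

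Lungs that had only breathed air also differed between day 27 and day 1. In the 10 mg/m3 study Cldn18 had 664, 802, 699 and 591 CPM at day 27, against 268, 259, 295, 355 and 674 CPM at day 1. All but rat 21 of day 1 were below every day 27 rat, and Cldn18 rose by 0.90 ± 0.19 (adjusted p = 0.0156), the only member past the threshold. Aqp5 had 398, 482, 403 and 349 CPM at day 27, against 168, 268, 355, 271 and 424 CPM at day 1, a difference of 0.46 ± 0.15 (adjusted p = 0.0851). Akap5 lay at 0.26 ± 0.08 (0.0713), Ager at 0.21 ± 0.10 and Cav1 at 0.21 ± 0.09, and Hopx alone was below 0, at -0.25 ± 0.16. This 1 of 10 stands beside 466 of 15668 genes (2.97%) called by edgeR. DESeq2 called 945 genes with 3 members, adding Aqp5 and Akap5, and limma voom 706 genes with 2 members, adding Aqp5. Slc34a2, the phosphate transporter of type 2 cells, also rose, by 0.45 ± 0.11 (0.0315), as the only type 2 gene of 14. The mitochondrial ribosomal RNA share was 3.02 to 4.00% at day 27 and 0.0961 to 3.01% at day 1, and with it as a covariate the value of Cldn18 was 0.17 (adjusted p = 0.769). These ranges do not overlap, so the fit separates the share poorly from the day. The call was also lost with only these groups in the fit, with the rat number as a covariate, and without any one of air rats 18 and 19 of day 1 or 3 and 5 of day 27. Rat numbers ran by group, from 1 to 6 at day 27 and from 17 to 21 at day 1. The fit with the rat number therefore separates it poorly from the day. Without rat 21 the value of Cldn18 stood at 1.23.

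In the air rats of the 30 mg/m3 study no member passed between day 27 and day 1. Cldn18 had 432, 573 and 655 CPM in air rats at day 27, against 247, 403 and 763 CPM at day 1, a difference of 0.25 ± 0.22 (interval -0.18 to 0.69), and the day 1 range enclosed that of day 27. The difference between the studies in this change over time was not tested. There edgeR called 2007 of 15551 genes (12.9%), DESeq2 2382 and limma voom 2239; 4681 genes and 1 member, Emp2 at -0.13 ± 0.06, had an unadjusted p under 0.05. In the neighbouring lists 2 of 20 other type 1 genes, 2 of 12 regulators and 2 of 7 caveola genes passed. The first and second shares are near that of all genes. The third rests on 2 genes, of which Cav2 is also counted in the first. Of the other type 1 genes, Igfbp2, an insulin-like growth factor binding protein of mature type 1 cells in mice, fell by 0.81 ± 0.13 (adjusted p = 0.000239) and Cav2, the partner of Cav1, by 0.32 ± 0.09 (0.018). The caveola gene Sdpr, which encodes cavin-2, fell by 0.27 ± 0.06 (0.00275), where Cav1 lay at -0.07 ± 0.06. Of the regulators, Nkx2-1 rose by 0.34 ± 0.10 (0.0296) and Wwtr1, which encodes TAZ, fell by 0.23 ± 0.07 (0.0198). In the 10 mg/m3 study, 0 of 20 other type 1 genes and 0 of 12 regulators passed for the same times.

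Rat by rat, the members did not vary as a block. After removal of the 12 group means, the log2 CPM of the 45 pairs over 64 libraries gave a Pearson r above 0 for 34 pairs and below 0 for 10. These are descriptions, with no p, since all points share library depth and composition. The membrane genes kept together, with r = 0.79 for Pdpn and Cav1 (Spearman rho 0.74), 0.78 for Pdpn and Emp2 and 0.78 for Cav1 and Emp2. The barrier genes Aqp5 and Cldn18 gave 0.77 (rho 0.73), and Aqp5 and Ager 0.74. Rtkn2 and Clic5 formed another pair, at 0.76 (rho 0.66). Hopx ran against Clic5, at -0.51, and against Cldn18, at -0.45, although Hopx and Pdpn gave 0.55. Without the 2 libraries farthest from the median of the first gene, these pairs kept their sign, from -0.46 for Hopx and Cldn18 to 0.79 for Aqp5 and Ager. Within the studies the separation of Clic5 was uneven: its r with Pdpn was -0.05 among the 36 rats of the 30 mg/m3 study and -0.62 among the 28 of the other. With Aqp5 the r of Rtkn2 was 0.60 among those 36 rats and -0.33 among those 28, and over all 64 libraries it was 0.57 without the 2 farthest libraries, against 0.15 with them.

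**Figure D4:**
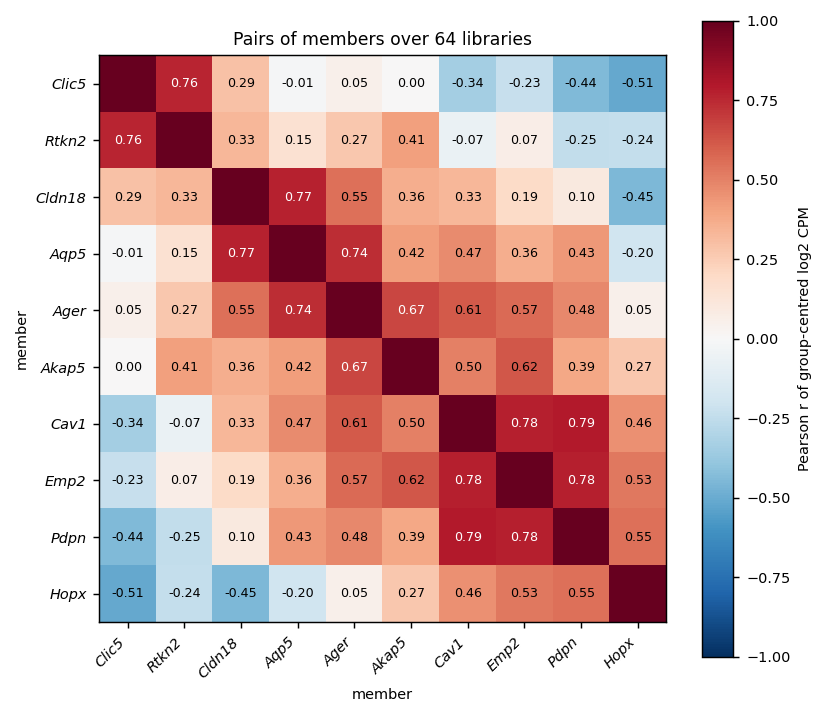
Pearson r of group-centred log2 CPM for each pair of the 10 members (both axes) over 64 libraries, with the value printed in each cell. Pdpn, Cav1 and Emp2 share r of 0.78 to 0.79, Rtkn2 and Clic5 pair at 0.76, and Hopx and Clic5 lie at -0.51.

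The members also split by their relation to measures of the library and of other cells. With the log2 share of mitochondrial ribosomal RNA, again after removal of the group means over 64 libraries, Cldn18 gave r = 0.65 (rho 0.66; 0.59 without the 2 farthest libraries) and Aqp5 0.49 (rho 0.41; 0.36). Hopx went the other way, at -0.63 (rho -0.59; -0.59), and the r of the other 7 members lay between -0.17 for Emp2 and 0.12 for Clic5. With the mean of the endothelial genes, Ager gave 0.61 (rho 0.60), the highest of the members, and Hopx -0.08. With the type 2 genes, Pdpn gave 0.63 (rho 0.48), Cav1 0.59 and Emp2 0.51, while Rtkn2 gave -0.13 and Clic5 -0.15. Rtkn2, which passed in the dose difference at day 1 beside Cldn18 and Aqp5, gave 0.04 with the mitochondrial share (rho 0.27; 0.25).

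**Figure D5:**
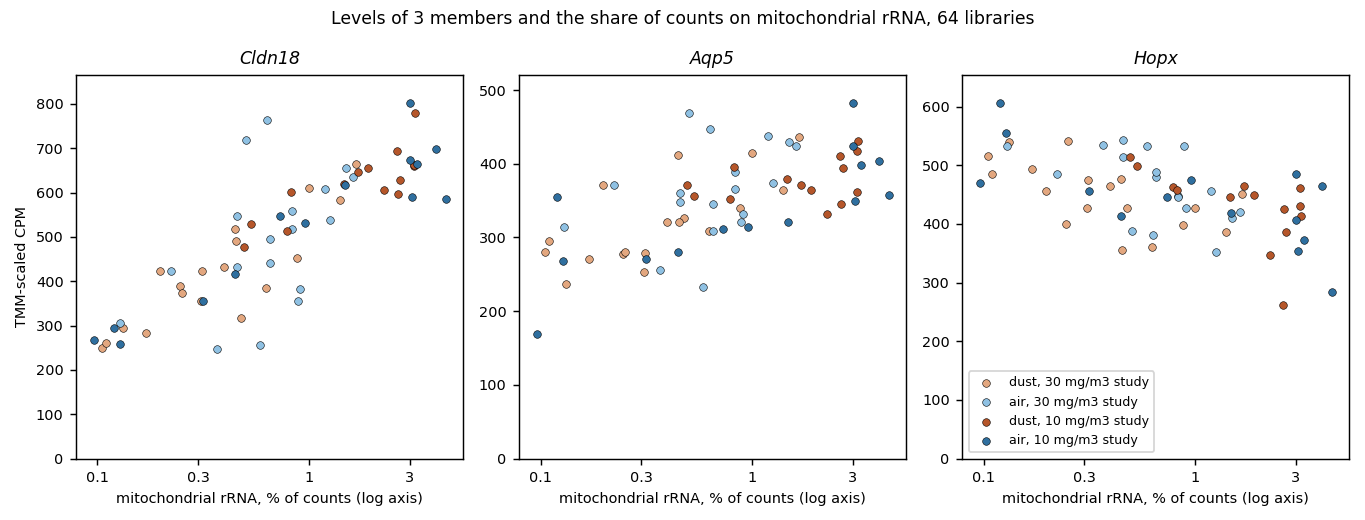
TMM-scaled CPM of Cldn18, Aqp5 and Hopx (y axes, from 0) against the percentage of counts on Rnr1 and Rnr2, the mitochondrial ribosomal RNA genes (x axis, log scale) in all 64 libraries, coloured by dust or air and by study; group means are not removed here. Cldn18 runs from 247 to 802 CPM and is mostly higher where the share is higher, and Hopx is mostly lower.

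Among 14876 other genes with a mean of at least 1 CPM in both studies, the ones most like each member over the 64 libraries, by Pearson r of group-centred log2 CPM, were the following. Cldn18 was closest to Rab27a, a small GTPase, and Htra1, a serine protease, both at 0.93. Clic5 was closest to Tead1, the DNA-binding partner of YAP and TAZ, and Polr2a, the large subunit of RNA polymerase II, both at 0.92. Aqp5 was closest to App at 0.89 and the zinc transporter gene Slc39a7 at 0.88. Hopx was closest to Sepp1, a selenoprotein, at 0.83 and the cathepsin Ctsl at 0.82. Pdpn was closest to Ap2m1, a clathrin adaptor subunit, at 0.82 and to Clic3 at 0.80. Rtkn2 was closest to Ptprb, a phosphatase of endothelium, at 0.80 and the p120-catenin gene Ctnnd1 at 0.78. Cav1 was closest to Msn at 0.78 and Bsg at 0.74, Ager to the caveolar Ehd2 at 0.74 and the calpain Capn2 at 0.72. Akap5 and Emp2 had the lowest likeness, with LOC102556753 at 0.73 and Shmt1 at 0.70 for Akap5, and the amino acid transporter gene Slc6a14 at 0.70 and Adk at 0.68 for Emp2.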

How the data were processed

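Total RNA of rat lung pieces was depleted of ribosomal RNA and sequenced from a stranded kit, per the labels' protocols. The deposited values are raw counts per gene symbol, 1 table per study. The submitters' processing notes name the build Rnor_6.0, the aligner HISAT2 2.1.0 and the counter HTSeq 0.6.1, beside Trimmomatic 0.35, bcl2fastq 2.19 and SAMtools 1.8. Which annotation was counted, and with which strand setting, is not given in the sources used here. How reads of overlapping genes were assigned can therefore not be told. Of 30045 symbols, 3625 had no count in any library.

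Samples were grouped by concentration, exposure and day as labelled. Counts were scaled by TMM and fitted with edgeR 4.0.16 and limma 3.58.1 in R 4.3.3, by the quasi-likelihood test, after filterByExpr with a minimum count of 10 and a minimum total of 15. Each study was fitted on its own (28 libraries with 15668 genes, and 36 with 15551), and the dose difference on all 64 libraries with 16190 genes. P-values were adjusted over all genes tested by the Benjamini-Hochberg method, at a threshold of 0.05, and intervals are 1.96 SE to each side. Log2 CPM used a pseudocount of 0.5. The biological coefficient of variation was 16.11% at 10 mg/m3, 16.74% at 30 mg/m3 and 16.58% over all. Library totals, given with the results, set the precision, and the lowest count of a member in any library was 854. The scripts were tested on simulated data.

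All 10 members are named. Of each other list, up to 2 genes past the threshold with the smallest p are named, or otherwise the 1 with the smallest p; per member the 2 genes with the highest r are named. The members and the 17 lists were chosen with earlier results of these data known. Alternatives were DESeq2 1.42.0, limma voom, other scaling and filtering, only the groups compared, 3 covariates, leaving out each library, and leaving out sets of air libraries. The sets with air rats 17 and 21 were added after seeing the data. The tables of the 2 studies were scaled together only for the dose difference and the levels, and dose and study cannot be told apart.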

Additional observations from a re-analysis of the deposited data

Results flagged for a closer look

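Of 120 sets of 1 member in 1 group, 10 held a library far from the rest; chance flags about 1 in 20 sets. The library with the fewest counts, dust rat 27 (day 1, 10 mg/m3), was far from the other 4 dust rats in 4 members. It was high in Clic5, with 1711 CPM where the nearest rat had 837, and in Rtkn2, with 379 CPM where the nearest had 299. It was low in Hopx, with 261.2 CPM where the nearest had 457.3, and in Akap5, with 568.7 CPM where the nearest had 658.3. Air rat 17 of the same day and study was high in Clic5, with 1338 CPM where the nearest had 726, and air rat 21 in Cldn18, with 674 CPM where the nearest had 355. The others were Clic5 in air rat 70 of day 7 at 30 mg/m3, with 902 CPM, Ager in air rat 36 of day 7 at 10 mg/m3, with 1537 CPM, Emp2 in dust rat 58 of day 1 at 30 mg/m3, with 1069 CPM, and Pdpn in dust rat 90 of day 27 at 30 mg/m3, with 674.3 CPM.

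The dust effect at day 1 differed between the doses, by the test of the difference itself, for 3 of 10 members. In that test 1678 of 16190 genes (10.4%) were called. None of the 3 passed with the share of mitochondrial ribosomal RNA in the fit, which separates that share poorly from dust. Only 1 was left without air rat 17, 54 or 55. The difference of log2 fold changes, 30 minus 10 mg/m3, was -1.10 for Cldn18, -0.72 for Aqp5 and -0.46 for Rtkn2. Each dose had its own study.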

How the results depend on the processing

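No member's called value changed direction under any alternative run. No paired analysis was possible because every rat number occurs once. In the dose difference at day 1 the number of members called was 3, and became 0 once the share of mitochondrial ribosomal RNA entered the fit, 5 without air rats 51 and 53, 6 without air rats 17, 21, 51 and 53, and 1 to 5 when single libraries were left out. For air at day 27 against day 1 at 10 mg/m3 it was 1. It became 3 with DESeq2, 2 with limma voom, 0 with the mitochondrial share and 0 with only the groups compared. It became 0 with the rat number, which ran by group, and 2 without air rats 17 and 21. It was 0 to 2 when single libraries were left out. The other comparisons with a change had 0 members called. The dose difference of the means gave 2 with DESeq2, 2 without air rats 17 and 21, 3 without the 4 air rats and 2 without rats 51 and 53, with a range of 0 to 2 over single libraries. Dust against air at day 1 gave, at 30 mg/m3, 1 with DESeq2, 3 without rats 51 and 53 and 0 to 3 over single libraries, and, at 10 mg/m3, 1 with DESeq2, 1 without rats 17 and 21 and 0 to 2 over single libraries. The mean dust effect gave, at 30 mg/m3, 1 with DESeq2, 3 without rats 51 and 53 and 0 to 2 over single libraries, and, at 10 mg/m3, 1 without rats 17 and 21 and 0 to 1 over single libraries. The dependence on day at 10 mg/m3 gave 0 to 1 over single libraries. The number of all genes called differed between the alternatives too, as given in the next paragraph. A change in the count of members can therefore not be read as particular to the members. The cause of these changes was not tested.

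The count of all genes called also moved. Over the alternatives it lay between 97 and 3115 in the dose difference at day 1, where it was 1678, between 0 and 877 for dust against air at day 1 at 30 mg/m3, where it was 0, and between 0 and 1147 at 10 mg/m3, where it was 20. It lay between 32 and 2778 for air over time at 30 mg/m3, where it was 2007, between 0 and 1467 at 10 mg/m3, where it was 466, between 1 and 1014 for the mean effect at 30 mg/m3, where it was 187, and between 0 and 1699 for the dose difference of the means, where it was 338. Of 4050 fold changes of members under alternatives, 119 had another sign than the reported value, all in values that had not passed.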
